A study of Mus musculus with 10 samples.

Results

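The 10 genes described here are the core transcription factors of the epithelial to mesenchymal transition (EMT) and the factors that oppose them in epithelia, read in luminal and basal cells of the mouse mammary gland. They were taken by name: Snai1, Snai2, Twist1, Twist2, Zeb1 and Zeb2 as the 6 EMT-inducing transcription factors, and Ovol1, Ovol2, Grhl2 and Esrp1 as the 4 epithelial antagonists. All 10 were found among the 24594 genes of the raw count table. RNA-seq was performed on 5 luminal and 5 basal libraries from untreated wild type C57BL/6J mice, and both populations were obtained by cell sorting on EpCAM and CD49f after enzymatic dissociation of the gland. The study's sorting methods also stain for TER-119, CD31 and CD45, which mark red blood, endothelial and immune cells. The age of the mice was not given in the labels, and the study's methods give only a range in weeks for the mice of its experiments. The sort takes all luminal cells together, so hormone-sensing cells and luminal progenitors are not separated in these libraries.

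EMT is the program by which epithelial cells lose junctions and polarity and gain motility. Snail, Twist and Zeb proteins drive it by binding E-box sequences, and Snail and Zeb proteins repress E-cadherin and other junction genes, whereas OVOL and GRHL proteins repress the EMT factors or activate junction genes, and ESRP proteins keep the epithelial forms of spliced transcripts. In the mammary gland, luminal cells line the ducts and basal cells form the contractile myoepithelial layer around them, and Slug, the product of Snai2, is a known marker of the basal layer.

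A point about the labels comes before the results. The title of each of the 10 samples names the opposite population to its cell type label, its source name and the letter in its description, which all name the same population. Grouping followed the cell type label, and the markers were on its side. All 9 luminal markers tested, with Krt8, Krt18, Elf5, Prlr and Foxa1 among them, were higher in the libraries labelled luminal, and all 7 basal markers, with Krt5, Krt14, Acta2 and Myh11 among them, were higher in those labelled basal. Total counts were 13203146 to 17565471 in the luminal and 13676558 to 17998165 in the basal libraries, so that 1 read was worth 0.0527 to 0.0774 CPM (counts relative to the library total, here with totals scaled by TMM factors, which correct for differences in RNA composition). Fibroblast markers summed to 179 CPM in luminal replicate 1 and to 27.4 to 63.4 CPM in the other luminal libraries, against 23.3 to 33.7 CPM in the basal ones. Dcn (95.1 CPM) and Col6a3 (76.5 CPM) carried the sum of luminal replicate 1, and the other 5 fibroblast markers summed to 7.505 CPM there, within the 4.43 to 14.7 CPM of all luminal libraries and below the 11.9 to 20.9 CPM of the basal ones.

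The E-box sequence CACCTG, the core that Snail and Zeb proteins bind, was looked for on both strands in the 250 bases before the transcription start in the RefSeq promoter windows (GRCm38.p6). Of the members, 5 had an entry, with 8 windows in all, and the Snai1 window was the only one of these 8 to hold it. By comparison, 5657 of all 32851 windows held it (17.2%). Among the 22 junction and polarity genes that are described further below, 15 had an entry, and 12 of their 22 windows held the motif (54.5%), although windows of a gene can overlap. The motif was also in 5 of 12 windows of luminal markers (41.7%) and 2 of 5 of basal markers (40%). The Snai1 window is shown as the member that holds the motif, and those of Cldn4, a tight junction claudin, and Spint2, an inhibitor of membrane-bound serine proteases, as junction-list genes that hold it. Each window contains no annotated exon base, is printed in the direction of transcription, and has the E-boxes in capitals. The Snai1 window lies at chr2:167537945-167538194 on the plus strand with its E-box beginning 126 bases before the start, the Cldn4 window at chr5:134946935-134947184 on the minus strand with 1 E-box at 14 bases, and the Spint2 window at chr7:29281978-29282227 on the minus strand with 3 E-boxes at 74, 55 and 9 bases.
Snai1: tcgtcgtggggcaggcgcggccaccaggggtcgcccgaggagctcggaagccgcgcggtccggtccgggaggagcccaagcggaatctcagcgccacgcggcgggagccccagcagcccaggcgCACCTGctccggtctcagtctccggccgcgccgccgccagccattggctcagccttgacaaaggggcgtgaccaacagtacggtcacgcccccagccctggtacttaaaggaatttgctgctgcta
Cldn4: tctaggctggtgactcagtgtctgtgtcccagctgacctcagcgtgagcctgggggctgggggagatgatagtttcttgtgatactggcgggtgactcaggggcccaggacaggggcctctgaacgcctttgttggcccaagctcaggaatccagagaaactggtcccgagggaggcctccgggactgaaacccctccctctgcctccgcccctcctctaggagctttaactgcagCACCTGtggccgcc
Spint2: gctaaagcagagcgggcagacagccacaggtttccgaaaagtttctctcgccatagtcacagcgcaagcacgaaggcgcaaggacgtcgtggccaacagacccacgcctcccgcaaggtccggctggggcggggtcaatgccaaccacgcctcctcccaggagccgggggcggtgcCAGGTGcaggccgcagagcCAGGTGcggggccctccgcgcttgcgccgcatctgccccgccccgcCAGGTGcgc
These letters describe the windows and are not evidence that a factor was bound there. Neither the OVOL sequence CCGTTA nor the palindromic GRHL sequence AACCGGTT occurred on either strand in the members' 8 windows, and they were in 2.18% and 0.116% of all windows.

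The members did not split by role between luminal and basal cells. A total of 14609 genes passed the filter on low counts and were tested, and 33.6% of them were called higher in luminal cells and 31.2% higher in basal cells (edgeR quasi-likelihood test, adjusted p under 0.05). Of the 10 members, 8 were tested, since Twist1 and Twist2 had too few reads. The EMT factor Zeb2 and the antagonists Ovol1, Ovol2 and Grhl2 were higher in luminal cells, the EMT factors Snai1 and Snai2 and the antagonist Esrp1 were higher in basal cells, and Zeb1 was not called. The share called in each direction, 4 and 3 of 8, is to be read against a background in which most tested genes were called. Values of the 2 cell types did not overlap in 6 of the 8 tested members and in 50.1% of all tested genes. Snai1 and Snai2 passed the filter through their basal counts and Zeb2 through its luminal counts, so that a difference was a condition of their being tested.

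**Figure D1:**
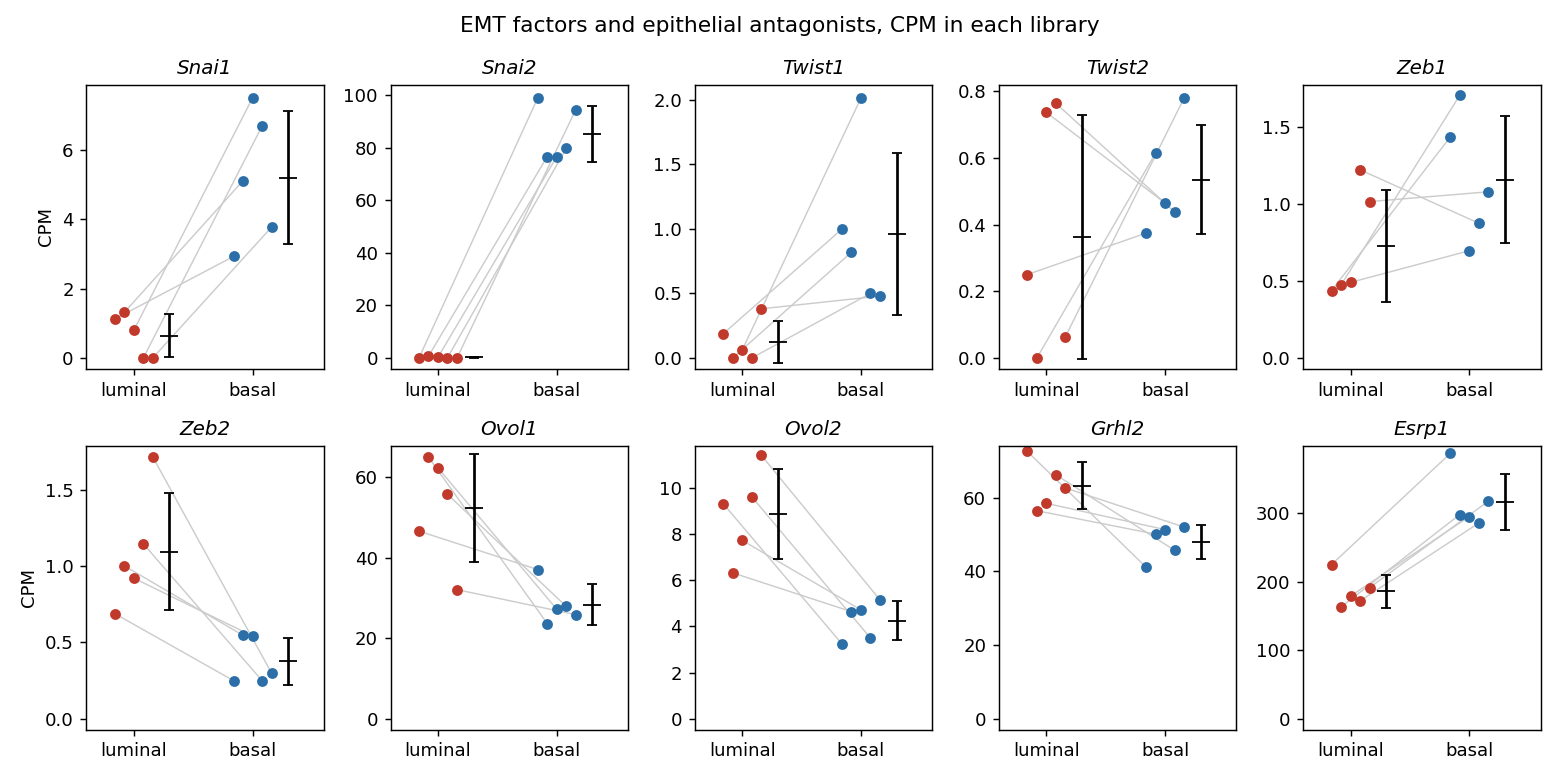
CPM of the 10 members in each of the 5 luminal (red) and 5 basal (blue) libraries, with same-numbered libraries joined by grey lines and the mean ± SD in black; the scale of the CPM axis differs between panels. Snai2 lay between 76.6 and 99.0 CPM in basal cells and at or below 0.685 CPM in luminal cells, while Grhl2 and Esrp1 were well expressed in both.

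**Figure D2:**
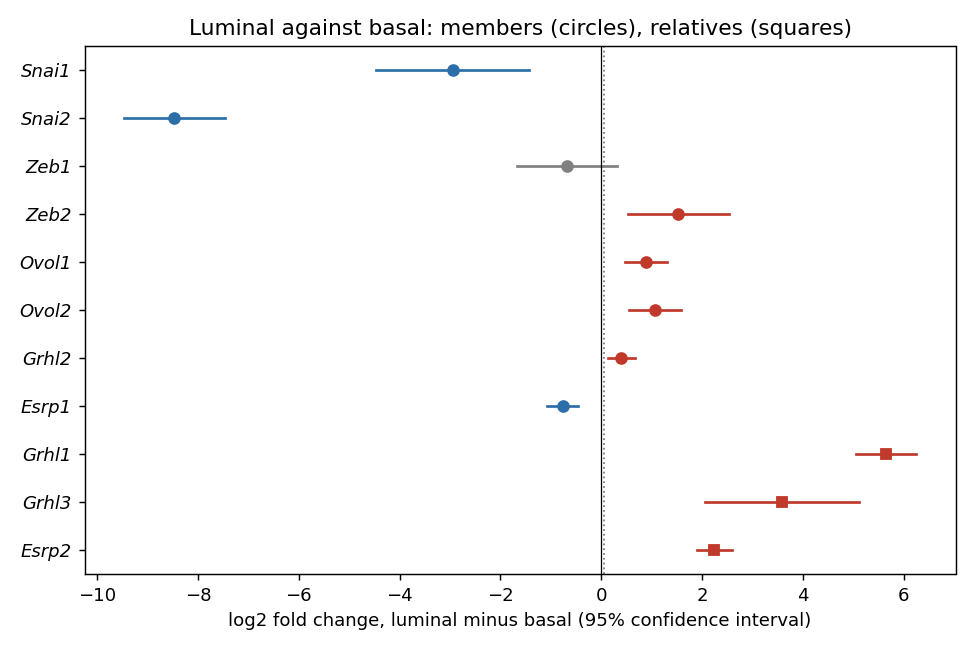
Log2 fold change, luminal minus basal, with its 95% confidence interval for the 8 tested members (circles) and the 3 tested relatives (squares); red marks genes called higher in luminal cells, blue in basal cells, grey not called, and the dotted line the median of all tested genes (0.05). The interval of Zeb1 includes 0, the points of Grhl1, Grhl3 and Esrp2 lie to the right of all members, and the intervals of Grhl3 and Esrp2 overlap that of Zeb2.

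Snai2 (Entrez 20583, chr16:14705852-14709395) showed the largest difference of the members. Its level was 99.0, 76.7, 76.6, 79.8 and 94.5 CPM in basal replicates 1 to 5, and 0, 0.685, 0.307, 0.0764 and 0 CPM in luminal replicates 1 to 5. All basal libraries were thus far above all luminal ones, which together held 19 Snai2 reads against 6556. The fitted log2 fold change was -8.47 (SE 0.465, adjusted p = 1.96e-09), a 354-fold lower level in luminal cells (95% confidence interval 177 to 706). This size rests on few luminal reads: without luminal replicate 2, which held 13 of the 19, the log2 fold change was -9.64, and limma voom gave -9.44. A count of 0 allows up to 3 reads, or 0.188 and 0.190 CPM in luminal replicates 1 and 5. The luminal mean of Snai2 was 0.250% of its basal mean, and the same share was 0.143 to 0.877% for the 7 basal markers, with a median of 0.463%. On these means Snai2 was within the range of the basal markers, but this did not hold in each library. In same-numbered pair 2 the luminal to basal ratio of Snai2 was 0.00893, above all basal markers (0.000938 for Myh11 to 0.00529 for Krt17). In pair 4 the Snai2 ratio was 0.000956, below all of them (0.00170 for Myh11 to 0.0177 for Krt17). Whether the luminal Snai2 reads came from basal cells in the luminal sort was not tested.

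**Figure D3:**
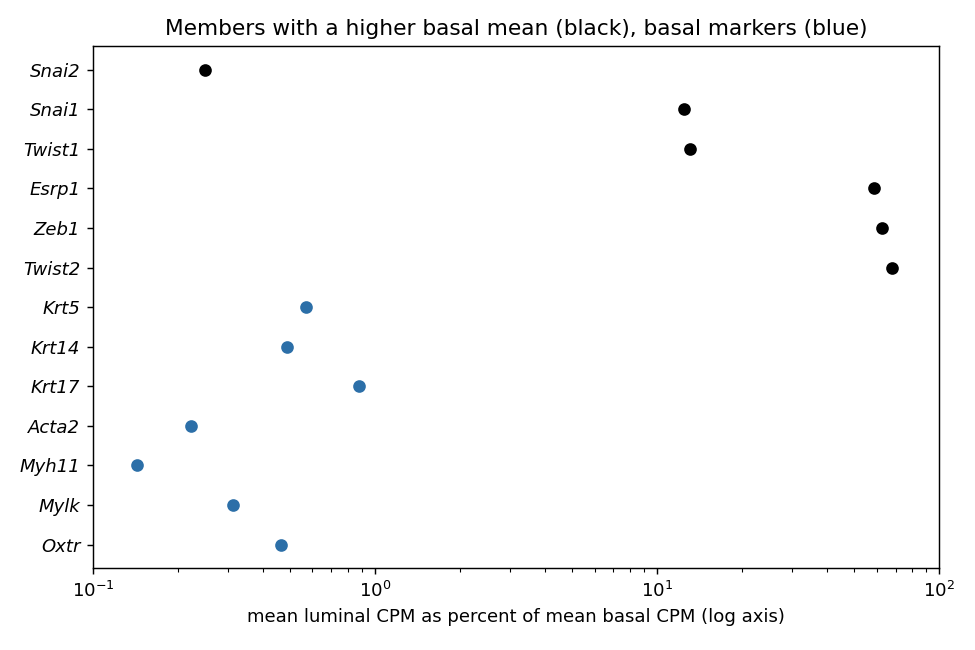
Mean luminal CPM as a percentage of mean basal CPM, on a log axis, for the 6 members with a higher basal mean (black) and the 7 basal markers (blue). Snai2 (0.250%) falls among the markers, whereas Snai1 (12.5%), Twist1 (13.1%), Esrp1 (58.8%), Zeb1 (62.9%) and Twist2 (67.9%) lie to their right; Twist1 and Twist2 did not pass the filter and Zeb1 was not called.

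Snai1 (Entrez 20613, chr2:167538195-167542814), which encodes Snail, was expressed at a lower level than Snai2 in basal cells. It had 2.93, 5.12, 7.51, 6.69 and 3.78 CPM in basal replicates 1 to 5 and 1.13, 1.32, 0.797, 0 and 0 CPM in luminal replicates 1 to 5. The 2 cell types did not overlap, and luminal replicates 4 and 5 had no read at all, for which the limits are 0.229 and 0.190 CPM. The fitted log2 fold change amounted to -2.95 (SE 0.708, adjusted p = 0.00218), and limma voom gave -4.03. The luminal mean was 12.5% of the basal mean, which is above the range of the basal markers. Snai1 RNA can be induced quickly by stimuli, and 10 of 12 genes of the response to tissue dissociation, Fos, Jun, Atf3, Egr1 and Dusp1 among them, were higher in basal cells, with a median log2 fold change of -0.99 over the 12 genes. Hspa1a and Hspa1b, the other 2, were higher in luminal cells. Over all tested genes, 31.2% were called higher in basal and 33.6% in luminal cells. The part of this response in the Snai1 difference was not tested.

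Twist1 (Entrez 22160, chr12:33957671-33959831) and Twist2 (Entrez 13345, chr1:91801461-91848034), basic helix-loop-helix factors of mesenchyme, were near the limit of detection. Twist1 had 16, 12, 26, 8 and 8 reads in basal replicates 1 to 5 and 3, 0, 1, 0 and 6 reads in luminal replicates 1 to 5, or 0.962 ± 0.626 and 0.126 ± 0.162 CPM (SD, n = 5). The basal libraries all had a higher Twist1 level than the luminal ones, by a narrow margin at the ends, 0.480 against 0.381 CPM. Twist2 had 6, 9, 6, 7 and 13 reads in the basal and 4, 0, 12, 10 and 1 reads in the luminal libraries, and the groups overlapped. When no filter was applied, Twist1 had a log2 fold change of -2.92 (SE 0.912, adjusted p = 0.0133) and Twist2 of -0.63 (SE 0.861, adjusted p = 0.562), in a fit in which 24.7% of 20612 genes were called higher in basal cells. In addition, 46.5% of the exon bases of Twist2 are shared with Gm29100 on the opposite strand, and the library kit does not mark strand, so that reads of these genes cannot be told apart.

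Zeb2 (Entrez 24136, chr2:44983512-45117442) was the only EMT factor called higher in luminal cells, at a very low level. It had 11, 19, 15, 15 and 27 reads in luminal replicates 1 to 5 and 4, 8, 7, 4 and 5 reads in basal replicates 1 to 5. This gave 1.09 ± 0.384 CPM in luminal and 0.377 ± 0.153 CPM in basal cells (SD, n = 5), with no overlap, and each luminal library was above the basal library of the same number, by 1.70 to 5.72 times. This corresponded to a log2 fold change of 1.53 (SE 0.469, adjusted p = 0.0106). Zeb2 is also well known from macrophages and fibroblasts, and markers of other cell types were therefore read beside it. Of 7 immune markers 4 were tested, and Cd52, Lyz2 and C1qa were higher in luminal cells (log2 fold changes of 2.03, 1.69 and 1.87) while Cd74 was higher in basal cells (-2.97). Without basal replicate 4 the value of Cd52 was 2.83. The call of C1qa was lost with no filter (1.81), with a replicate block (1.98, adjusted p = 0.0611) and without luminal replicate 4 (1.52), luminal replicate 5 (1.71), basal replicate 2 (1.80) or basal replicate 3 (1.68). The summed immune markers reached 5.07 to 13.4 CPM in luminal and 12.8 to 34.6 CPM in basal cells, and Cd3e was at 0 in every library. Cd74 set the direction of this sum. Without it, the immune markers summed to 4.06 to 11.7 CPM in luminal and 0.542 to 4.06 CPM in basal cells. Cd74 was picked for leaving out after its value was seen. Of 7 fibroblast markers 5 were tested, of which Dcn and Col6a3 were higher in luminal cells and Pdgfra in basal cells. Without luminal replicate 1, in which Dcn and Col6a3 were highest, the log2 fold change of Zeb2 was 1.67 (adjusted p = 0.00952). In sorted bulk cells, a few cells with much Zeb2 RNA and many cells with little cannot be told apart, and the part of immune cells and of fibroblasts in the Zeb2 difference was not tested.

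Zeb1 (Entrez 21417, chr18:5591327-5775468), the paralog of Zeb2, did not pass the test. It had 0.438, 0.474, 0.491, 1.22 and 1.02 CPM in luminal replicates 1 to 5 and 1.43, 1.71, 0.696, 0.875 and 1.08 CPM in basal replicates 1 to 5, and the groups overlapped. The log2 fold change was -0.68 with a 95% confidence interval of -1.67 to 0.31 (adjusted p = 0.211), which leaves room for a basal level several times higher as well as for a small difference in the other direction. In all, 56 luminal and 89 basal Zeb1 reads were counted.

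**Figure D4:**
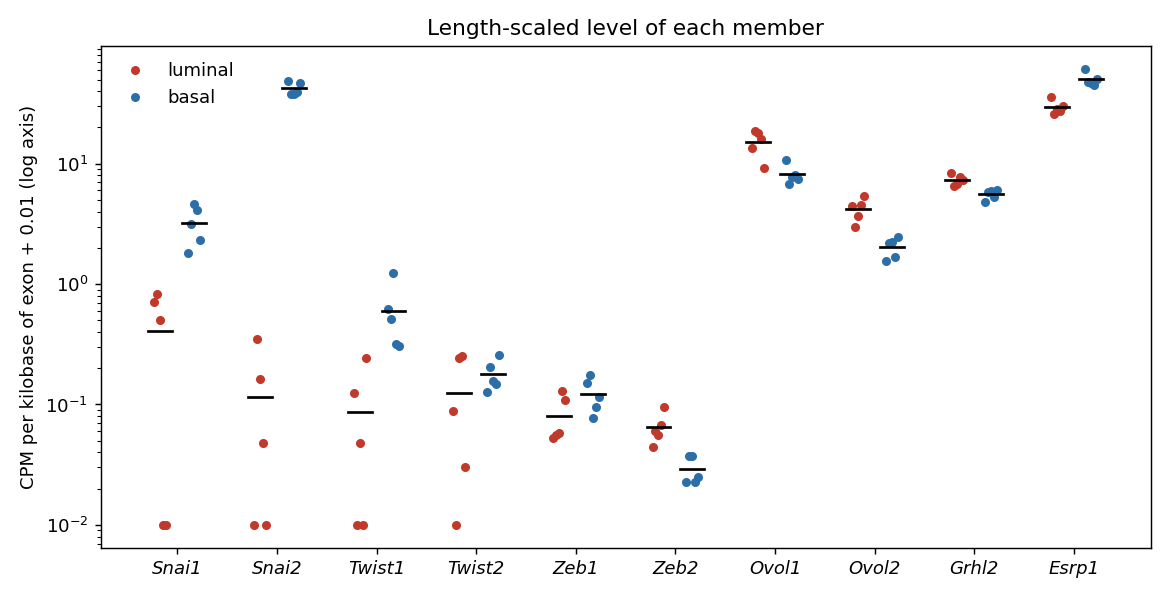
CPM per kilobase of exon, plus 0.01, on a log axis for the 10 members in each luminal (red) and basal (blue) library, with the mean of each group as a black bar. The 4 antagonists stand above all 6 EMT factors in luminal cells, and Snai2 reaches the level of Esrp1 only in basal cells.

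Scaled by exon length, levels of different genes can be set side by side, but only roughly. Reads over exon junctions are largely missing from these counts, and this loss can differ between genes. Exons of other genes on the opposite strand also cover part of Twist2, Ovol1 and Ovol2. In luminal cells all 4 antagonists were above all 6 EMT factors, with Esrp1 at 29.6 ± 3.82, Ovol1 at 15.02 ± 3.84, Grhl2 at 7.35 ± 0.745 and Ovol2 at 4.203 ± 0.919 CPM per kilobase (SD, n = 5). No neighbours in this order overlapped between libraries. The 6 EMT factors followed with means of 0.0548 to 0.400 CPM per kilobase, and none of them could be placed above the next beyond the spread of the libraries. In basal cells the order changed through Snai2, which at 42.2 ± 5.27 CPM per kilobase overlapped with Esrp1 at 50.3 ± 6.53 and exceeded Ovol1 (8.13 ± 1.48) and Grhl2 (5.59 ± 0.533) in every library. Snai1 at 3.21 ± 1.18 overlapped with Ovol2 at 2.01 ± 0.394 CPM per kilobase. Twist1 (0.591 ± 0.385), Twist2 (0.168 ± 0.0513) and Zeb1 (0.113 ± 0.0400) came next, of which only Twist2 and Zeb1 overlapped, and Zeb2 was the lowest at 0.0189 ± 0.00768. The CPM of the 6 EMT factors summed to 2.69 to 3.48 in the luminal and 85.5 to 105 in the basal libraries, and that of the 4 antagonists to 291 to 354 and 363 to 469. Both sums were thus higher in the basal libraries, where Snai2 made up most of the first and Esrp1 most of the second.

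The OVOL zinc finger repressors were both higher in luminal cells, and both were present in basal cells. Ovol1 (Entrez 18426, chr19:5549137-5560575) had 46.7, 65.0, 62.4, 55.8 and 32.1 CPM in luminal replicates 1 to 5 and 37.1, 23.7, 27.2, 27.9 and 25.9 CPM in basal replicates 1 to 5. Luminal replicate 5 was below basal replicate 1, so the groups overlapped, although each luminal library was above the basal library of the same number. Ovol1 had a log2 fold change of 0.88 (SE 0.195, adjusted p = 0.00115). Ovol2 (Entrez 107586, chr2:144305175-144332080) had 9.32, 6.32, 7.73, 9.62 and 11.4 CPM in luminal replicates 1 to 5 and 3.24, 4.64, 4.72, 3.50 and 5.15 CPM in basal replicates 1 to 5. The groups did not overlap, with a log2 fold change of 1.06 (SE 0.238) and an adjusted p of 0.00133. Exons on the opposite strand cover 19.8% (Gm31166) of the exon bases of Ovol1 and 17% (1700108N11Rik) of those of Ovol2, and reads from them cannot be told apart from reads of the members.

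Grhl2 (Entrez 252973, chr15:37232821-37363569), a grainyhead factor that activates E-cadherin and claudin genes, differed least of the members that were called. It had 72.6, 56.5, 58.5, 66.3 and 62.7 CPM in luminal replicates 1 to 5 and 41.2, 50.1, 51.4, 45.8 and 52.1 CPM in basal replicates 1 to 5. The lowest luminal library was above the highest basal one. The fitted log2 fold change amounted to 0.40 (SE 0.126, adjusted p = 0.0133), or 1.32-fold with a 95% confidence interval of 1.09 to 1.59, which is below the median absolute log2 fold change of 0.81 over all tested genes. With no filter on low counts, Grhl2 was no longer called (0.33, adjusted p = 0.0547).

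Esrp1 (Entrez 207920, chr4:11331933-11386783), an epithelial splicing regulator, was the antagonist that was higher in basal cells. It had 388, 298, 295, 286 and 318 CPM in basal replicates 1 to 5 and 225, 163, 179, 172 and 192 CPM in luminal replicates 1 to 5. The groups did not overlap, and the luminal to basal ratio lay between 0.547 and 0.607 in the 5 same-numbered pairs. This corresponded to a log2 fold change of -0.77 (SE 0.140, adjusted p = 0.000257).

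Each of the 3 tested relatives of the antagonists had a larger absolute log2 fold change than any of the 4 antagonists themselves. Grhl1, another grainyhead factor, had 68.9 to 92.4 CPM in luminal and 0.750 to 2.63 CPM in basal cells, with a log2 fold change of 5.65 (SE 0.275, adjusted p = 6.27e-10). Grhl3 followed with 11.2 ± 2.65 and 0.910 ± 1.40 CPM (log2 fold change 3.58, SE 0.71, adjusted p = 0.000494), and without basal replicate 4 its log2 fold change was 5.14. Grhl3 passed the filter through its luminal counts, so that a difference was a condition of its being tested. Esrp2 was higher in luminal cells, with 51.1 ± 8.49 against 10.8 ± 1.54 CPM (log2 fold change 2.24, SE 0.164, adjusted p = 3.07e-08). Esrp1 and Esrp2 therefore differed in opposite directions, and the groups did not overlap for either gene. Per kilobase, Esrp1 was above Esrp2 in both cell types, at 29.6 against 11.8 in luminal and 50.3 against 2.48 in basal cells, and Grhl1 was above Grhl2 in luminal cells (14.2 against 7.35) and below it in basal cells (0.277 against 5.59). Of the other relatives, Snai3 had 84 luminal and 17 basal reads, Ovol3 had 2 reads in all and Scrt1 none, and these were not tested.

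The microRNAs of the miR-200 family and miR-205 repress Zeb1 and Zeb2. Mature microRNAs are too short for this kind of library, and reads at the 6 microRNA genes can come only from longer transcripts. These genes had between 0 and 18 reads per library and none was tested. Mir205 was the exception in its pattern, with 8, 6, 2, 1 and 3 reads in basal replicates 1 to 5 and 0 in all luminal libraries. The mature miR-205-5p, at chr1:193507503-193507524 on the minus strand, is shown with its seed, bases 2 to 8, in capitals.
miR-205-5p: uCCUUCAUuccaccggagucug
With no filter, Mir205 (adjusted p = 0.00511) and Mir200b (adjusted p = 0.0366) were called higher in basal cells, as were 24.7% of all genes in that fit. The call of Mir200b rests on 11 basal reads against 0, of which 8 were in basal replicate 2, and basal replicates 3 and 4 had none.

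Of the 22 epithelial junction and polarity genes, which are typical targets of the EMT factors and of GRHL and OVOL proteins, 18 were higher in luminal cells, 2 were higher in basal cells and 2 were not called. Their median log2 fold change was 2.56, against 0.05 for all tested genes. The tight junction genes Tjp3 (6.65), Cldn7 (5.74) and Cldn3 (5.67) had the largest log2 fold changes. Cldn7 was at 291 ± 33.7 CPM in luminal and 5.47 ± 1.88 CPM in basal cells. E-cadherin (Cdh1) was well expressed in both, with 1086 to 1503 CPM in luminal and 505 to 646 CPM in basal cells, and a log2 fold change of 1.26 (SE 0.152, adjusted p = 5.11e-06). Cldn4 and Spint2, whose promoter windows are printed above, had log2 fold changes of 2.84 and 0.62. The desmosomal genes Pkp1 (-1.90) and Dsp (-1.68) were higher in basal cells. Tjp1 (-0.33) and Patj (0.12) were not called. However, Tjp1 was called higher in basal cells with a replicate block (-0.35) and without luminal replicate 1 (-0.38) or basal replicate 4 (-0.41). The same held with DESeq2 or its size factors (-0.37 for both) and with no filter (-0.40). Epcam is among the 18 genes higher in luminal cells and was also a gate of the sort, so that its own difference is no finding.

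Of 22 mesenchymal genes, 17 were higher in basal cells, 2 were higher in luminal cells and 3 were not called, and their median log2 fold change was -3.52. By comparison, 31.2% of all tested genes were called higher in basal and 33.6% in luminal cells. Like the other lists, this list was chosen with earlier results of these data known. The matrix genes Postn (-8.67) and Sparc (-7.12) and the receptor tyrosine kinase Axl (-6.52) had the lowest values. Vimentin (Vim) was at 169 ± 47.6 CPM in basal and 6.05 ± 1.87 CPM in luminal cells. Some markers of vessel-associated cells were also higher in basal cells. Of 5 pericyte and vascular smooth muscle markers 4 were tested, and Rgs5 (21.7 ± 4.81 against 0.159 ± 0.357 CPM), Pdgfrb (9.84 ± 2.36 against 0.676 ± 0.533) and Kcnj8 (2.32 ± 1.26 against 0.0981 ± 0.219) were higher in basal cells, while Notch3 was higher in luminal cells (log2 fold change 5.17). All luminal reads of Rgs5 (13) and Kcnj8 (8) were in luminal replicate 3. Leaving out each library gave log2 fold changes of -11.4 to -6.62 for Rgs5 and -8.19 to -4.07 for Kcnj8. Summed, these 5 markers reached 33.8 to 45.8 CPM in basal and 94.9 to 269 CPM in luminal libraries, of which Notch3 made up nearly all in the luminal ones, and without Notch3 the sums were 29.4 to 39.6 CPM in basal and 0 to 2.39 CPM in luminal libraries. Of 5 endothelial markers 2 were tested, of which Cdh5 was higher in basal cells (4.58 ± 1.48 against 0.217 ± 0.167 CPM) and Pecam1 was not called, and their sum was 6.56 to 14.4 CPM in basal and 1.69 to 4.06 CPM in luminal libraries. The part of these cells in the values of the mesenchymal genes, Snai1, Snai2 and Twist1 was not tested. The fibrillar collagen genes Col1a1, Col1a2 and Col3a1, which are typical of fibroblasts, were the 3 not called, with log2 fold changes of 0.58, 0.45 and 0.41. S100a4 (2.36) and Mmp3 (1.43) were higher in luminal cells, and Mmp3 was no longer called without luminal replicate 5 (1.04) or basal replicate 5 (1.33).

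**Figure D5:**
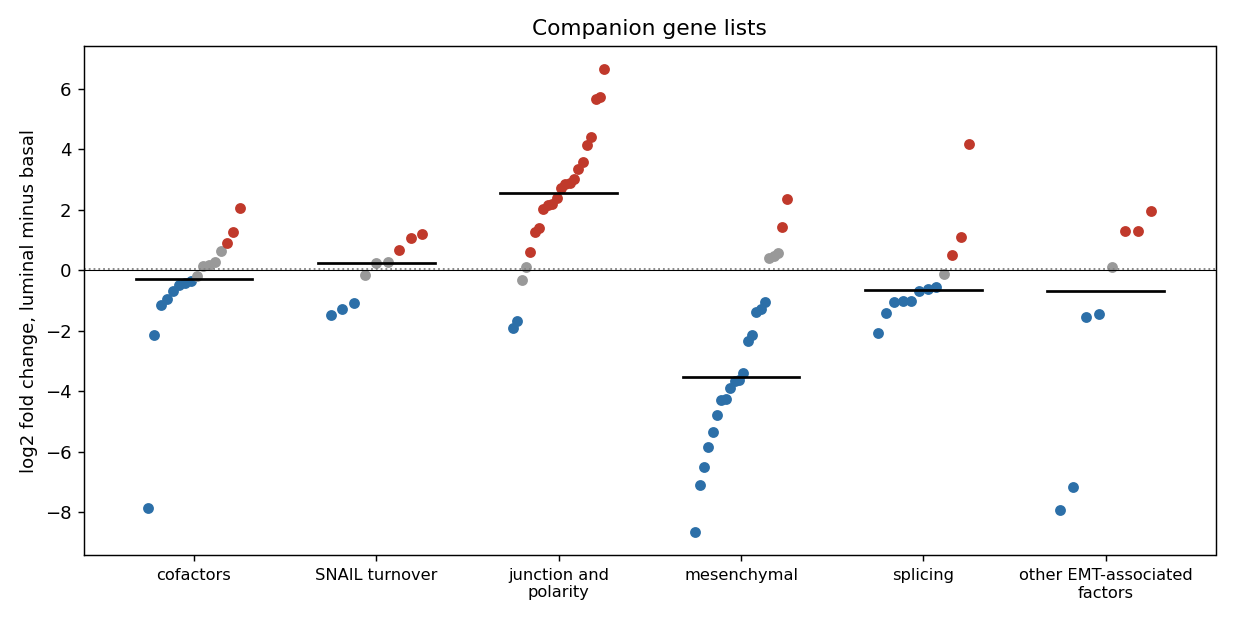
Log2 fold change, luminal minus basal, of each tested gene of 6 companion lists, with genes called higher in luminal cells in red, in basal cells in blue and not called in grey; black bars are list medians and the dotted line is the median of all tested genes. Junction and polarity genes lie mostly above 0 (median 2.56) and mesenchymal genes mostly below (median -3.52), and the other lists are mixed.

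Proteins that the EMT factors act with were found on both sides. Of 16 cofactors, 8 were higher in basal cells, 3 in luminal cells and 5 were not called, with a median log2 fold change of -0.28. Calls on both sides were common, with 31.2% of all tested genes called higher in basal and 33.6% in luminal cells. Id4, an inhibitor of the E proteins that pair with Twist, had 275 to 365 CPM in basal cells and 0.421 to 3.05 CPM in luminal cells (-7.87). The LIM protein gene Ajuba (-2.15), whose product binds Snail, and the E protein gene Tcf4 (-1.14) were also higher in basal cells. Id3 (2.06), Hdac1 (1.26) and Id2 (0.90) were higher in luminal cells. Without luminal replicate 4, 5 cofactors were called higher in luminal cells in place of 3. Snail protein is short-lived, and of 9 genes for its turnover and modification 3 were higher in luminal cells, 3 in basal cells and 3 were not called, with a median of 0.25. These counts are close to the shares over all tested genes given above. The kinase gene Gsk3b (-1.47), whose product marks Snail for degradation, and the ubiquitin ligase gene Fbxo11 (-1.27) were higher in basal cells, and the kinase genes Prkd1 (1.20) and Pak1 (1.08) and the ligase gene Btrc (0.66) in luminal cells. The deubiquitinase gene Usp27x was higher in basal cells (-1.08), and its call was lost without luminal replicate 2 (-0.87), luminal replicate 4 (-0.97), basal replicate 2 (-0.999) or basal replicate 3 (-0.92) and with library totals (-0.89). Fbxl5, Fbxl14 and Fbxo45 were not called, with log2 fold changes of 0.25, 0.28 and -0.16, although Fbxl14 was called higher in luminal cells with upper-quartile factors (0.40, adjusted p = 0.0315) and library totals (0.47, adjusted p = 0.0202).

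Other splicing regulators and known ESRP splice targets were also read, at the gene level, which does not show splice forms. Of 12 genes, 8 were higher in basal cells, 3 in luminal cells and 1, Mbnl1 (-0.14), was not called, and the median log2 fold change was -0.65. The shares over all tested genes were 31.2% higher in basal and 33.6% higher in luminal cells. Rbm47, which favors epithelial splice forms, was at 152 ± 9.30 CPM in luminal and 8.41 ± 0.970 CPM in basal cells (4.17), whereas Rbfox2 (-2.07) and Qk (-1.04), which favor mesenchymal forms, were higher in basal cells. Among the 6 targets, Enah (1.10) and Fgfr2 (0.51) were higher in luminal cells and Arhgap17 (-1.41), Arhgef11 (-1.02), Cd44 (-0.69) and Ctnnd1 (-0.57) in basal cells. The call of Fgfr2 was lost without luminal replicate 5 (0.37), basal replicate 2 (0.50) or basal replicate 3 (0.50) and with no filter (0.45). The call of Cd44 was lost without luminal replicate 2 (-0.55), luminal replicate 3 (-0.57) or basal replicate 4 (-0.59), with upper-quartile factors (-0.56) and with library totals (-0.52).

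Of 14 other transcription factors linked to EMT, 8 were tested, of which 4 were higher in basal cells, 3 were higher in luminal cells and Klf8 (0.09) was not called. These counts stand beside 31.2% of all tested genes called higher in basal and 33.6% in luminal cells. Trp63, which encodes the basal lineage factor p63, and Prrx1, a mesenchymal homeobox gene, were close to Snai2 in their pattern. Prrx1 had 111 to 178 CPM in basal cells and 0.125 to 2.03 CPM in luminal cells (-7.16), and Trp63 had 242 to 313 and 0.687 to 2.03 CPM (-7.95). Sox10 (-1.54) was also higher in basal cells. Foxq1 (1.94), Tbx3 (1.30) and Foxc1 (1.29) were higher in luminal cells. The median of the 8 genes was -0.68.

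For each tested member, the gene with the most similar profile over the 10 libraries was taken as the highest Pearson correlation of log2(CPM + 0.5). These values are a description, since the 10 points share 2 cell types and may, in pairs, share an animal. The genes were Slc6a9 for Snai2 (r = 0.998), Llgl1 for Snai1 (0.987), Dennd5b for Zeb1 (0.915), Morn3 for Zeb2 (0.955), Grin1 for Ovol1 (0.981), Igfals for Ovol2 (0.978), Ada for Grhl2 (0.957) and Hey1 for Esrp1 (0.988). Hey1 encodes a Notch-responsive repressor and was at 186 CPM in basal and 59.0 CPM in luminal cells. A high correlation does not mean a change of similar size. Grin1 was at 6.64 CPM in luminal and 0.281 CPM in basal cells, beside 52.4 and 28.4 CPM for Ovol1. Llgl1 was at 59.2 and 95.6 CPM, beside 0.648 and 5.20 CPM for Snai1.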

How the data were processed

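Raw counts per gene were deposited by the authors for 10 libraries, with Entrez identifiers, of which 24570 of 24594 matched a mouse symbol. Per the labels, reads were processed with cutadapt 4.2 and Bowtie2 2.3.5.1, and mm10 is among the builds listed. The counting tool, its annotation and its use of strand were not given in the sources used here. Since Bowtie2 makes no spliced alignments, reads over exon junctions are largely missing from these counts.

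Counts were filtered with filterByExpr, scaled by TMM and tested with the edgeR 4.0.16 quasi-likelihood test in R 4.3.3, two-sided, with Benjamini-Hochberg adjustment over all 14609 genes tested and a threshold of 0.05. Log2 fold changes are luminal minus basal. Exon lengths were unions of GENCODE M21 exons (GRCm38). The members and lists were chosen with earlier results of these data known. All 10 members were named, together with all family relatives and microRNA genes, and from each other companion list the genes not called where 3 or fewer, and up to 3 called genes per direction with the largest change and at least 1 CPM in the higher group. Marker and dissociation-response genes named as examples, and Cdh1, Cldn4, Spint2, Vim, Arhgef11, Cd44, Ctnnd1 and Hey1, fall outside this rule and were chosen after their values were seen. The markers left out of a sum (Cd74, Notch3, Dcn and Col6a3) were also picked after their values were seen. The test was also tried on simulated counts, but no outcome is given here and no result rests on it. Libraries with the same number share the leading number of their description, which was read as the animal; the mean correlation of their deviations was 0.042, with a lowest value of -0.12. P-values rest on the spread between these 10 libraries, which the main fit treated as independent, without pairing by number. Counting limits cover counting error only.

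Alternatives were other scalings, other filters, DESeq2 1.42.0, limma voom 3.58.1, a replicate block, a stricter threshold and leaving out each library.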

Additional observations from a re-analysis of the deposited data

Results flagged for a closer look

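Grhl3 had 3.38 CPM in basal replicate 4, whereas the other basal libraries had 0 to 0.599 CPM, so this library lay far from the others of its group. It was the only such case in 28 groups of 5 libraries that were screened, and chance gives about 1 in 20. The value stayed below all luminal libraries, and leaving this library out changed the log2 fold change of Grhl3 to 5.14 in place of 3.58.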

How the results depend on the processing

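For the 8 tested members, 139 of 140 values under other settings kept their direction and their side of the threshold, and none was reversed. The exception was Grhl2 with no filter (log2 fold change 0.33, adjusted p = 0.0547). Snai1 ranged from -4.03 (limma voom) to -2.64 (without luminal replicate 5), Snai2 from -9.64 to -8.14 (without luminal replicates 2 and 1 in turn), and the adjusted p of Zeb1 from 0.0996 to 0.405. Upper-quartile scaling moved the median of all genes by 0.12 and library totals by 0.19. With at least 10 counts in every library, Snai1, Snai2, Zeb1 and Zeb2 could not enter the fit, and the members called higher in basal cells were 1 (30.6% of all genes in that fit), the mesenchymal genes called higher in luminal cells 1 and the other EMT-associated factors called higher in basal cells 2. At an adjusted p under 0.0001 with at least a 2-fold change, 0 members were called higher in luminal and 1 in basal cells, against 12.4% and 13.5% of all tested genes. With no filter, 2 microRNA genes were called higher in basal cells. With library totals, the cofactors numbered 6 on the luminal and 5 on the basal side (39.1% and 25.4% of all genes in that fit). Fbxo45 (0.031) and Mbnl1 (0.057) were reversed in it. Leaving out each library gave 3 to 5 cofactors and 1 to 2 mesenchymal genes higher in luminal cells, and Klf8 from -0.078 (without luminal replicate 4) to 0.38, with -0.051 without basal replicate 2. For 83 other genes named in the text, 1444 of 1478 values were the same, 22 lost and 8 gained their call and 4 were reversed. The replicate block changed no member call (Zeb2 1.52, adjusted p = 0.0335) but called Tjp1 (-0.35, adjusted p = 0.0271) and no longer called C1qa (1.98, adjusted p = 0.0611). Depth limits Twist1, Twist2, Zeb1, Zeb2 and the microRNA genes, with fewer than 30 reads in each library.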
